A study of Mus musculus with 38 samples.

Results

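The 35 genes described here are germline and meiosis genes, taken as a list of symbols. The rule uses no measured value, but the list was drawn up with earlier results of these data known. They are 35 of the 25965 gene rows of the deposited expression table, and 32 of them reached the level needed for a test, 0.5 RPM in at least 3 libraries, RPM being reads of a gene scaled to the library's total. The other 3, Asz1, Spo11 and Mei1, stayed below it. The RNA came from E14 mouse embryonic stem (ES) cells, an XY line grown without feeder cells on gelatin and passaged every 2 days, with leukaemia inhibitory factor (LIF) in every medium. In 2i/L the cells were kept for 8 days in serum-free N2B27 medium with 1 µM of a MEK inhibitor and 3 µM of the GSK3 inhibitor CHIR99021. In MEKi/L the medium held only the MEK inhibitor at 1 µM, for 8 days. In GSK3i/L it held only the GSK3 inhibitor at 3 µM, for 24 days or for 8 days. S/L was serum medium with LIF and no inhibitor, sampled at 8 days. There were 3 libraries each of 2i/L, MEKi/L, GSK3i/L at 8 days and S/L, and 2 of GSK3i/L at 24 days, 14 in all. No RNA library came from N2B27 with LIF and no inhibitor, so an inhibitor and the change of basal medium cannot be told apart in any comparison with S/L. All libraries come from 1 cell line. The labels do not say whether replicates came from separate cultures. Each p-value therefore reflects the spread between these libraries alone, which may be technical. The 24 bisulfite samples of the study were not analysed here.

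Germline genes of this kind serve meiosis, in which homologous chromosomes are held along a protein axis, joined by the synaptonemal complex and exchanged by recombination, and the piRNA pathway, in which PIWI proteins loaded with small RNAs silence transposons in germ cells. Somatic cells keep most of them off by DNA methylation of CpG-rich promoters. In mouse ES cells many of the same promoters are also bound by PRC1.6, a Polycomb complex that reaches DNA through E2F6 with DP1 and through MGA with MAX, and several of the genes are expressed at low levels in these cells.

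MGA and MAX are known to bind the E-box CACGTG, and E2F factors sites with the core TCCCGC. Both motifs were searched in the promoters to describe what the genes share apart from function. RefSeq promoters (GRCm38.p6, 250 bases before to 50 bases after the transcription start) were found for 30 of the 35 genes, which have 36 promoters between them. Tex11, Tex15, Piwil2, Spo11 and Mybl1 were not in that table. The 250 bases before the start are printed for 5 genes whose levels are described below, on the gene's strand from 5′ to 3′, with CACGTG and TCCCGC (or its reverse complement GCGGGA) in capitals. They are the reference sequence and were not read from the E14 cells. Mael lies on the minus strand at chr1:166238745-166238994, Sycp3 on the plus strand at chr10:88459337-88459586, Hormad1 on the plus strand at chr3:95559427-95559676, Fkbp6 on the minus strand at chr5:135349914-135350163 and Tuba3a on the minus strand at chr6:125286082-125286331.
Mael: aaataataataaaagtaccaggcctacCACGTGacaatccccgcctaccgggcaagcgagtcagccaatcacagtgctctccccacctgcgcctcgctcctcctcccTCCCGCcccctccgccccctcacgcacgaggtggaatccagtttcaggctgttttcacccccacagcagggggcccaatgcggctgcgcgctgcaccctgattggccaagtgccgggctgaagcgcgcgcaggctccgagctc
Sycp3: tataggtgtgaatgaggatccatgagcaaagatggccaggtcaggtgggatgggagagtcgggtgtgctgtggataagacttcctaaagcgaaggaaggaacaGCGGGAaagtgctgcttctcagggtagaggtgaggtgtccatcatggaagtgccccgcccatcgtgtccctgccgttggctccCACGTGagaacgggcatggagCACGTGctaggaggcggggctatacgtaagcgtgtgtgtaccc
Hormad1: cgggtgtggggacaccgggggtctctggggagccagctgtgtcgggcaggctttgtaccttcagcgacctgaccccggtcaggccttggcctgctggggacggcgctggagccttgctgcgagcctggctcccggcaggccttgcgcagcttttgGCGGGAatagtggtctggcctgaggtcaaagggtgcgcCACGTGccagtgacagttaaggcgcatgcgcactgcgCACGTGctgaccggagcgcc
Fkbp6: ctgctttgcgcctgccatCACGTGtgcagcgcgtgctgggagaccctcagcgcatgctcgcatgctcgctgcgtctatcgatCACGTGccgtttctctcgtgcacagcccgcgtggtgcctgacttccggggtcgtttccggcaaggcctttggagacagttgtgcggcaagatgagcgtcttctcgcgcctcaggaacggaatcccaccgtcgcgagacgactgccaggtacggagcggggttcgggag
Tuba3a: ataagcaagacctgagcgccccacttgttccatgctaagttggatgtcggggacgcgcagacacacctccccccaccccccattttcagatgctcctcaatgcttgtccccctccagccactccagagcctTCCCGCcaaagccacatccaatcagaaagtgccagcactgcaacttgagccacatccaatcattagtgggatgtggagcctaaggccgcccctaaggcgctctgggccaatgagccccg
The Mael stretch held 1 E-box and 1 E2F core. Sycp3 and Hormad1 each held 2 E-boxes and 1 E2F core, and in both the E-boxes were the matches nearest to the start. Fkbp6 held 2 E-boxes and no E2F core, whereas Tuba3a held 1 E2F core and no E-box.

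CACGTG, a palindrome that reads the same on both strands, stood in 19 of the 36 promoters (52.8%), against 7.15% of all 32851 promoters of the table. TCCCGC on either strand stood in 15 of the 36 (41.7%), against 20.0% of all, and both motifs in 9 of the 36 (25.0%), against 1.99% of all. A match of one motif can overlap a match of the other by at most 1 base. The median ratio of observed to expected CpG was 0.724 in the 36 promoters and 0.384 in all promoters. Among promoters with a ratio of at least 0.6, 18 of 26 of the germline and meiosis promoters held CACGTG (69.2%), against 11.3% of all such promoters, and TCCCGC was in 46.2% against 43.1%. At like CpG content, then, the E-box share stood further from that of all promoters than the E2F share did. These are letter matches, described without a test. They do not show that a factor was bound.

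**Figure D1:**
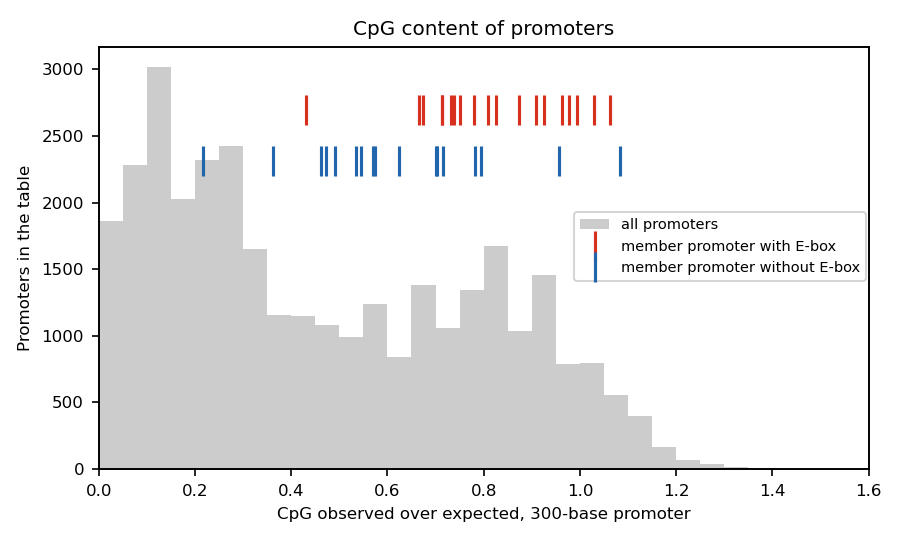
The CpG observed over expected ratio of RefSeq promoters (300 bases) is on the horizontal axis, and the grey bars count all 32851 promoters of the table. Ticks mark the 36 germline and meiosis promoters, red with an E-box and blue without; 26 of them lie at a ratio of at least 0.6, 18 of those with an E-box.

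The cells' identity and the libraries were checked before the genes were compared. All 12 ES cell markers, Pou5f1 and Nanog among them, were present in each group, with a summed level between 6414 and 7867 RPM in every library. Markers of late male germ cells were mostly at 0: 6 or 7 of 9 were listed at 0 in each group, Prm1, Prm2, Tnp1 and Tnp2 included. Markers of the two-cell-like state summed to 0 to 0.08 RPM in 2i/L, 0.25 to 0.66 RPM in MEKi/L, 0 RPM with GSK3i/L at 24 days, 0 to 2.94 RPM with GSK3i/L at 8 days and 47.0 to 104.6 RPM in S/L. Fibroblast and mesenchymal markers summed to 216 to 368 RPM in 2i/L, 213 to 369.7 RPM in MEKi/L, 123 to 144 RPM with GSK3i/L at 24 days, 509 to 932 RPM with GSK3i/L at 8 days and 249.5 to 511 RPM in S/L. Of 12 fibroblast and mesenchymal markers in the test used below, 10 were higher and 1 lower in GSK3i/L at 8 days than in S/L. Their median log2 fold change was 2.54, beside 0.06 for all genes, of which 16.8% were higher and 14.4% lower. In MEKi/L against GSK3i/L at 8 days, 0 were higher and 8 lower, with a median of −3.53 beside 0.09 for all genes. There 12.2% of all genes were higher and 5.65% lower. The part of two-cell-like and mesenchymal cells in the results below was not tested. Libraries also differed in the balance of long and short genes, measured as the mean log2 level of 40 genes with long transcripts minus that of 40 genes with short ones. This score was 0.33 to 0.44 in 2i/L, 0.62, −1.94 and −1.51 in MEKi/L, −3.64 and −3.07 in GSK3i/L at 24 days, 0.32, −1.66 and −2.77 in GSK3i/L at 8 days, and −2.93 to −2.48 in S/L. Replicate 1 of MEKi/L and replicate 1 of GSK3i/L at 8 days thus stand apart from their groups and next to 2i/L, and are called the 2 high-score libraries below. The part of the score in the results was not tested beyond the counts given with the score added to the fit and without those libraries. The score ranges of 2i/L and S/L are narrow and far apart, so score and medium cannot be told apart between these groups. A fit with the score rests on its spread within groups, mainly in MEKi/L (SD 1.37) and GSK3i/L at 8 days (SD 1.56). The 8 libraries of 2i/L, MEKi/L and GSK3i/L at 24 days hold values that are whole multiples of 1 read, from totals of 10550000 to 15760000 reads. The 6 libraries of GSK3i/L at 8 days and S/L share 1 set of sorted values instead (above 2 RPM they differ by at most 0.079 on the log2 scale). The comparison of 2i/L with MEKi/L and that of GSK3i/L with S/L at 8 days therefore stay within 1 kind of value, and the other 6 cross both kinds. A level of 3 reads, taken as the floor, was 0.19 to 0.461 RPM.

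The list did not move as a block. Of the 32 tested genes, the highest group mean was that of 2i/L for 4, MEKi/L for 10, GSK3i/L at 24 days for 7 and S/L for 11, and for none that of GSK3i/L at 8 days. The lowest group mean fell in 2i/L for 10 genes, in GSK3i/L at 24 days for 10, in GSK3i/L at 8 days for 6, in S/L for 6 and in MEKi/L for none. Such counts were not made over all genes, so they describe the 32 genes and give no contrast with other genes. The 24-day mean comes from 2 libraries, fewer than in the other groups, which can make it more often extreme. Mael, Sycp3 and Ddx4 were among the genes highest in serum, and Tuba3a, Dazl, Smc1b and Hormad2 among those highest with the MEK inhibitor alone. The medium with both inhibitors had the highest Rec8, Fkbp6, Tex11 and Tex15. In bulk RNA, fewer cells expressing a gene and less RNA per cell cannot be told apart.

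**Figure D2:**
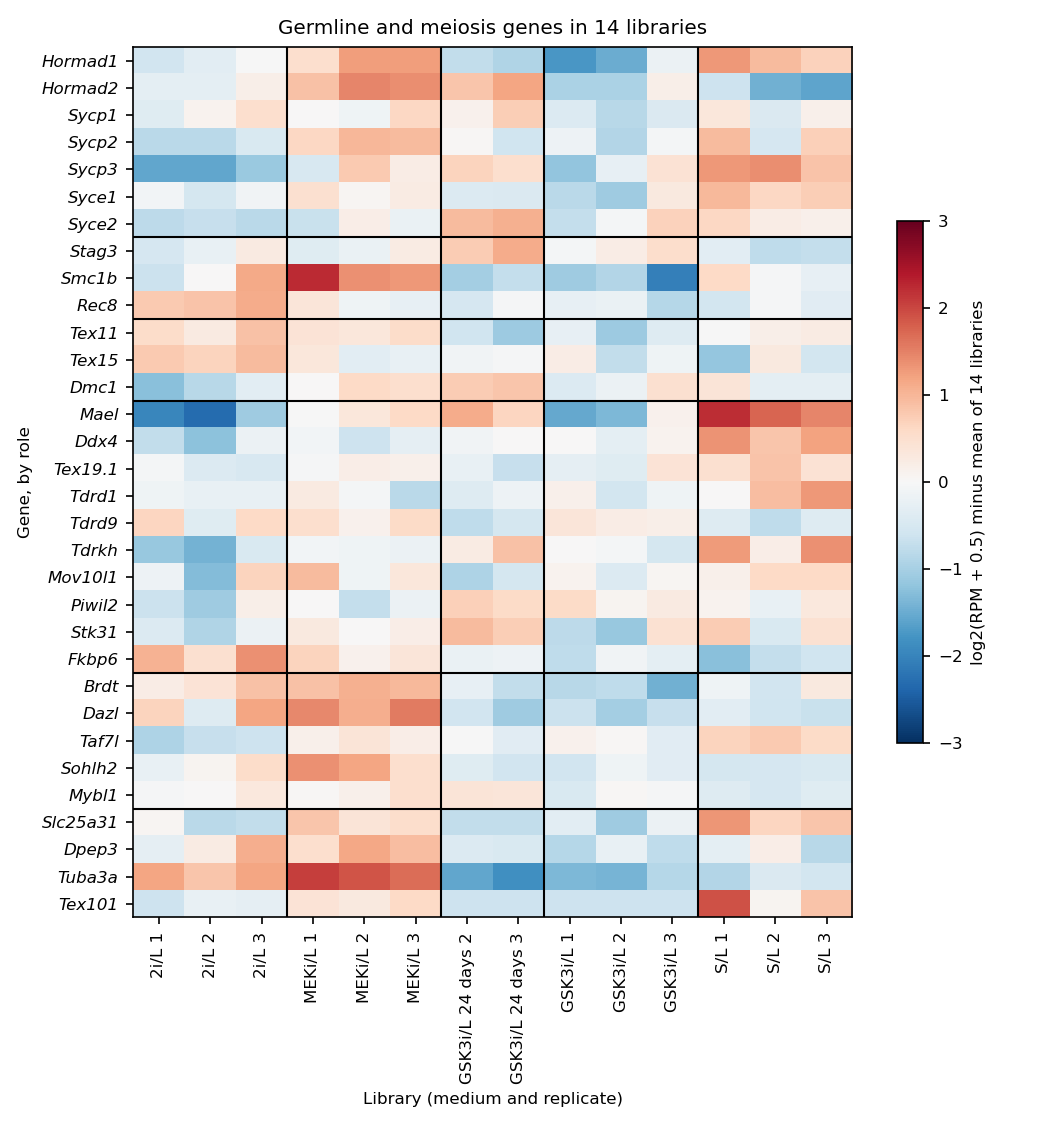
Colour gives log2(RPM + 0.5) of each of the 32 tested genes (rows, by role, roles parted by lines) in each of 14 libraries (columns, by medium and replicate), minus the gene's mean over the 14. Mael, Ddx4 and Tex19.1 are red in all 3 S/L columns, while Dazl, Tuba3a and Smc1b are red in all 3 MEKi/L columns and blue in the 5 GSK3i/L columns.

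With both inhibitors against serum, 9 of the 32 genes were higher, 13 lower and 10 not past the test (limma moderated test over 14980 genes, Benjamini-Hochberg adjusted p under 0.05). Over all genes tested, 39.1% were higher and 24.4% lower in 2i/L, and the share of these genes past the test in either direction (68.8%) stands near the 63.6% of all genes. The higher genes were Fkbp6, Tdrd9, Tuba3a, Tex15, Rec8, Hormad2, Dazl, Sohlh2 and Mybl1. The lower genes were Mael, Tex101, Sycp3, Tdrkh, Sycp2, Slc25a31, Ddx4, Taf7l, Hormad1, Syce2, Syce1, Tex19.1 and Dmc1. The median log2 fold change was −0.70 for the 32 genes and 0.28 for all genes. After centring each library on its median gene the counts were 6 higher and 17 lower, and among all calls the share that was higher became 46.3%, against 61.6%. With the long-minus-short score added to the fit 5 were higher and 7 lower, among them genes not called without it. The calls that ended with it were those of Sycp2, Sohlh2, Hormad1, Tex101, Syce1, Tex15, Tex19.1, Tdrd9, Rec8, Dazl, Syce2 and Dmc1. Score and medium cannot be told apart in this comparison. Without replicate 3 of 2i/L, 5 were higher.

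With the MEK inhibitor alone against serum, 10 were higher, 4 lower and 18 not past, beside 26.1% and 14.7% of all genes. The share past the test, 43.8%, is near the 40.8% of all genes. The higher genes were Hormad2, Tuba3a, Tdrd9, Dpep3, Dazl, Smc1b, Sohlh2, Brdt, Fkbp6 and Mybl1, and the lower ones Mael, Ddx4, Tdrkh and Sycp3. The median was 0.24 for the 32 genes and 0.17 for all. Centring gave 10 higher and 6 lower, and 50.6% of all calls were then higher, against 64%. Without the 2 high-score libraries the counts were again 10 and 4, but the calls of Tdrkh (adjusted p = 0.061) and Smc1b (adjusted p = 0.074) ended and other genes passed. With the score in the fit 10 were higher and 3 lower, among them genes not called without it. The calls that ended with it were those of Mael (adjusted p = 0.1), Brdt (adjusted p = 0.14), Sycp3 (adjusted p = 0.5), Tdrd9 (adjusted p = 0.05) and Smc1b (adjusted p = 0.16). The number lower was 2 without MEKi/L replicate 3 and 2 without S/L replicate 1.

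With the GSK3 inhibitor alone for 8 days against serum, 2 were higher, 14 lower and 16 not past, beside 16.8% and 14.4% of all genes. The share past the test was 50% for the 32 genes and 31.1% for all. Higher were Tdrd9 and Stag3. Lower were Tex101, Mael, Hormad1, Slc25a31, Smc1b, Brdt, Sycp3, Syce1, Tdrkh, Ddx4, Taf7l, Tex11, Tex19.1 and Tuba3a. The median was −0.71 for the 32 genes and 0.06 for all genes. The number lower was 14 under quantile normalization and 8 when only the 2 groups were fitted. It was 14 with the score in the fit, where the call of Tex19.1 ended (adjusted p = 0.064) and another gene passed, and that of the higher gene Tdrd9 ended too (adjusted p = 0.058). It was 12 without the 2 high-score libraries, where the calls of Tex19.1 (adjusted p = 0.079), Tuba3a (adjusted p = 0.081) and Tdrd9 (adjusted p = 0.075) ended. It was 8 without S/L replicate 1, and 9 without S/L replicate 3 or without GSK3i/L replicate 2. The number higher was 1 without GSK3i/L replicate 1 or 2 or S/L replicate 3, and 0 without S/L replicate 2. The lower direction of the calls did not reverse in any of these alternatives.

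Between the single inhibitors, 12 genes were higher in MEKi/L than in GSK3i/L at 8 days, none was lower and 20 were not past, beside 12.2% of all genes higher and 5.65% lower. In either direction, 37.5% of the 32 and 17.8% of all genes passed. At an unadjusted p under 0.05, 0 of the 32 were lower. The 12 genes were Smc1b, Tuba3a, Brdt, Dpep3, Tex101, Hormad1, Dazl, Sycp2, Hormad2, Slc25a31, Sohlh2 and Tex11. Tex101 and Dpep3 reached 0.5 RPM in no GSK3i/L library and passed the filter through other groups, MEKi/L among them. The filter thus favoured their calls, which add no support of their own. The median was 0.77 for the 32 genes (0.70 with Tex101, at 0 in GSK3i/L, held at its bound) and 0.09 for all. With the replicate number as a block, which treats libraries of the same number as paired, 12 were higher as well, but Sycp2 was no longer past (adjusted p = 0.05). The number higher was 17 with the score as a covariate and 9 without the 2 high-score libraries, where the calls of Sycp2 (adjusted p = 0.066), Slc25a31 (adjusted p = 0.082) and Tex101 (adjusted p = 0.058) ended. After centring, 50.1% of all calls were higher in MEKi/L, against 68.3%.

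Both inhibitors against the MEK inhibitor alone, within 1 kind of value, gave 1 gene higher in 2i/L, 11 lower and 20 not past, beside 6.81% of all genes higher and 6.11% lower. Here 37.5% of the 32 passed, and 12.9% of all genes. Rec8 was the gene higher, and Sycp2, Mael, Tex101, Sycp3, Slc25a31, Hormad2, Taf7l, Hormad1, Dmc1, Sohlh2 and Tuba3a were lower. The median was −0.71 for the 32 genes and 0.07 for all. With the score in the fit 10 were lower, among them genes not called without it, and the calls of Slc25a31 (adjusted p = 0.055), Hormad1 (adjusted p = 0.061), Tex101 (adjusted p = 0.079) and Rec8 (adjusted p = 0.063) ended. Without the 2 high-score libraries that of Slc25a31 ended (adjusted p = 0.058). The number lower was 2 without MEKi/L replicate 2, 3 without 2i/L replicate 2, and 5 without MEKi/L replicate 3 or 2i/L replicate 1. Rec8 was no longer past without 2i/L replicate 2 or 3 or without MEKi/L replicate 2 or 3. Both inhibitors against the GSK3 inhibitor alone gave 9 higher, 3 lower and 20 not past, beside 19.8% and 8.02% of all genes, and 27.8% in either direction. The higher genes were Brdt, Tuba3a, Dpep3, Smc1b, Fkbp6, Rec8, Dazl, Tex11 and Tex15, and the lower ones Sycp3, Taf7l and Piwil2. The median was 0.17 for the 32 genes (0.06 with Tex101 held at its bound) and 0.18 for all. With the score in the fit the calls of Tex15 (adjusted p = 0.24), Smc1b (adjusted p = 0.12), Sycp3 (adjusted p = 0.41) and Taf7l (adjusted p = 0.055) ended. Without the 2 high-score libraries those of Dpep3 (adjusted p = 0.091), Piwil2 (adjusted p = 0.089) and Taf7l (adjusted p = 0.062) ended. After centring those counts were 7 higher and 8 lower, and 37.9% of all calls were higher, against 71.2%, so the balance of this comparison turns with the scaling. The number lower was 6 without 2i/L replicate 3, 1 without GSK3i/L replicate 3, and 0 without 2i/L replicate 1, 2i/L replicate 2 or GSK3i/L replicate 2. Comparisons that share a group are not independent of each other.

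**Figure D3:**
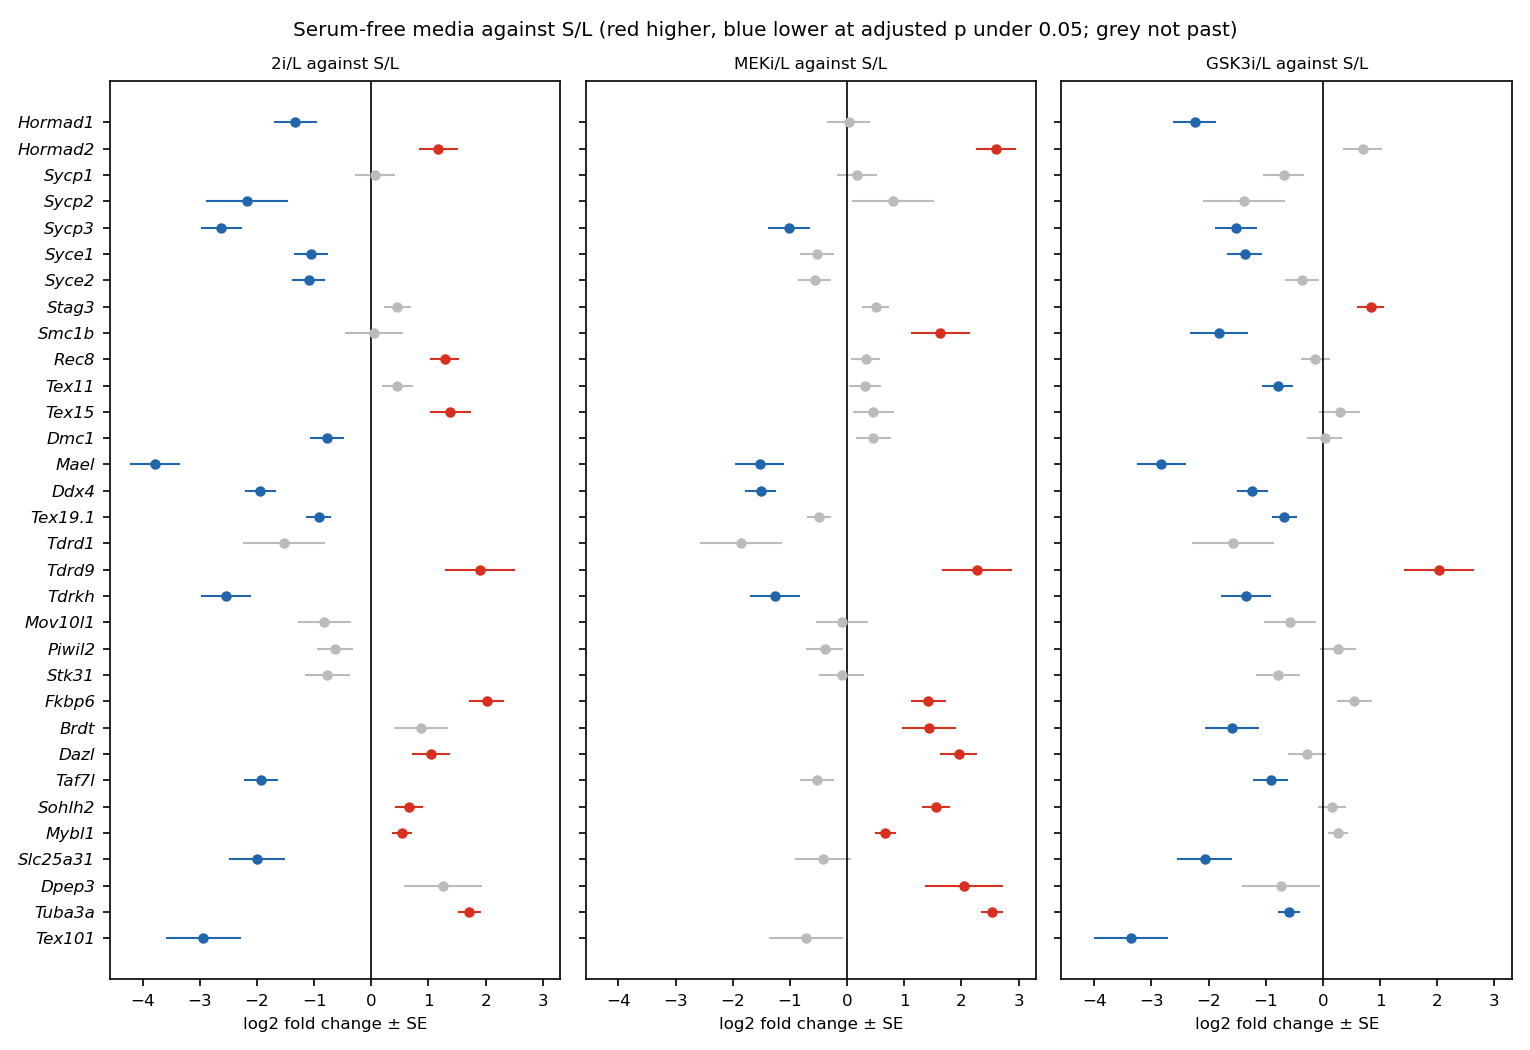
Log2 fold change of each tested gene (points, bars ± SE of the limma fit) in 2i/L, MEKi/L and GSK3i/L, each against S/L. Red points are higher, blue lower at adjusted p under 0.05, and grey ones not past; Mael, Sycp3, Ddx4 and Tdrkh are blue in all 3 panels, and Tuba3a is red in the 2 panels with the MEK inhibitor and blue with the GSK3 inhibitor alone.

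**Figure D4:**
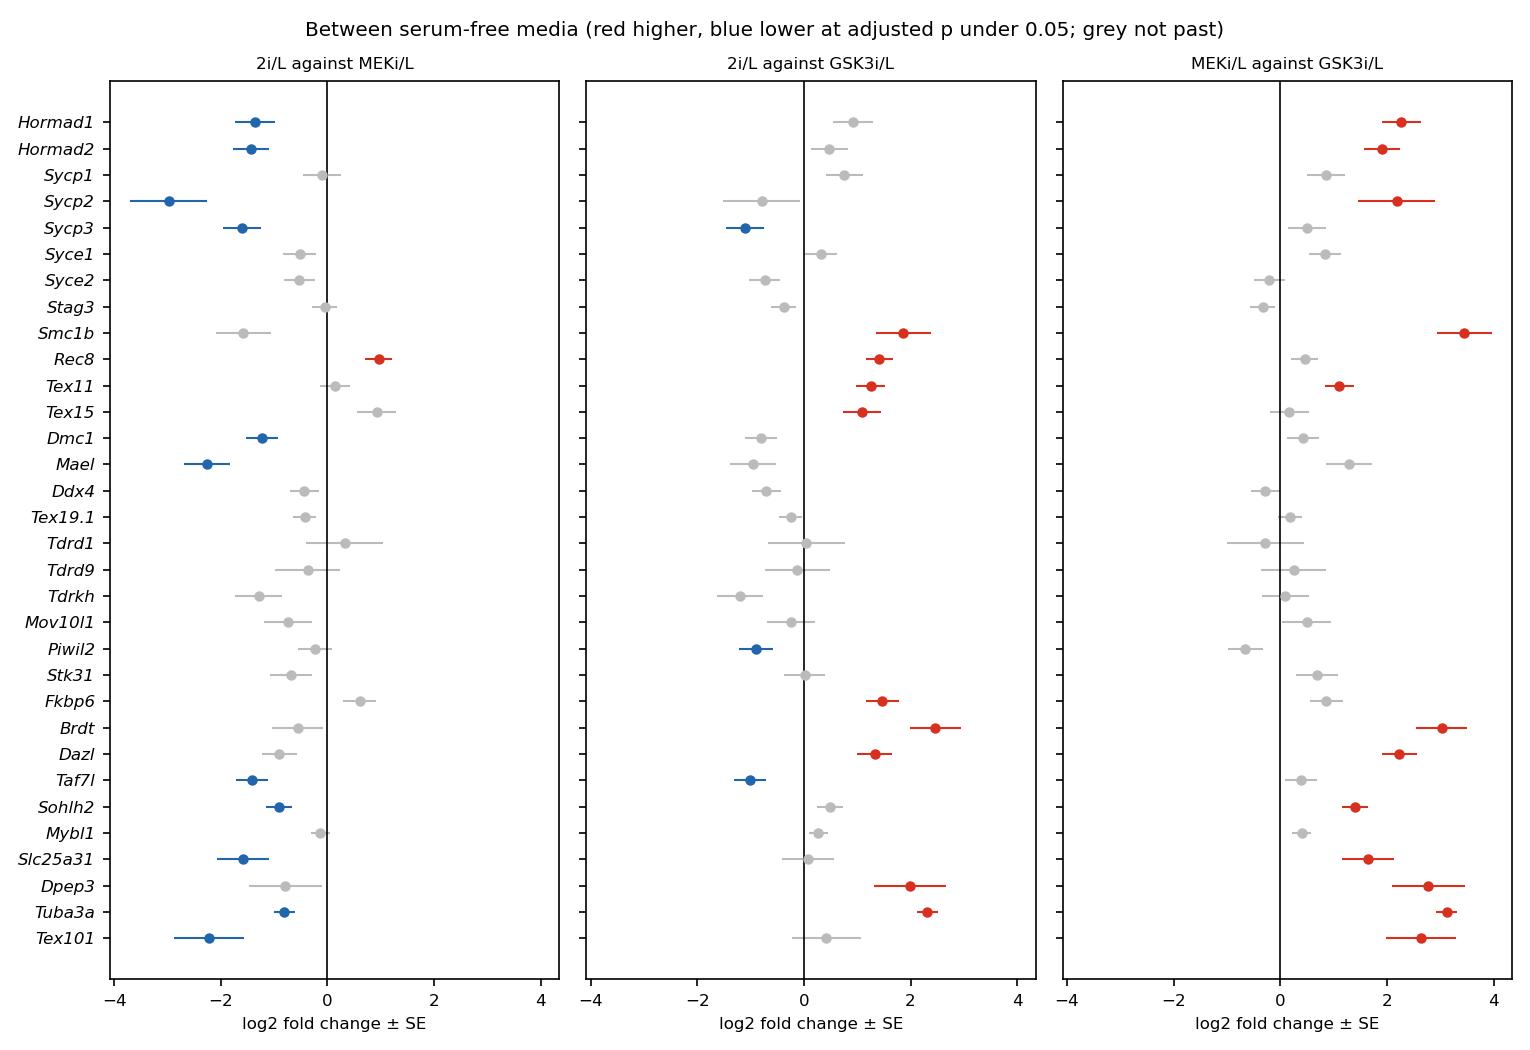
Log2 fold change ± SE of each tested gene in 2i/L against MEKi/L, 2i/L against GSK3i/L and MEKi/L against GSK3i/L, coloured as higher (red), lower (blue) or not past adjusted p under 0.05 (grey). The right panel has 12 red points and no blue one, and the left panel has 11 blue points and 1 red one, Rec8.

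Of the proteins of the synaptonemal complex and the chromosome axis, Sycp3 was lower than in S/L in each 8-day medium without serum, and both HORMA-domain genes were higher in MEKi/L than in GSK3i/L. Sycp3, which encodes an axial element protein, lies on chromosome 10 wholly inside Chpt1 on the opposite strand. Sycp3 was at 14.1, 14.1 and 19.11 RPM in 2i/L and 30.0, 72.5 and 49.0 RPM in MEKi/L. GSK3i/L libraries had Sycp3 at 66.8 and 59.8 RPM after 24 days and 18.4, 35.4 and 57.5 RPM after 8 days, and S/L libraries had it at 104, 112 and 76.2 RPM. Every S/L library lay above every other library, and the 2i/L libraries lay below all those of MEKi/L. Against S/L, Sycp3 had log2 fold changes of −2.62 ± 0.36 (adjusted p = 4.1e-05) in 2i/L, −1.02 ± 0.36 (adjusted p = 0.037) in MEKi/L and −1.52 ± 0.36 (adjusted p = 0.0071) with GSK3i/L. 2i/L was also below MEKi/L, with −1.604 ± 0.36 (adjusted p = 0.011). With the score as a covariate the MEKi/L difference from S/L was −0.18 (adjusted p = 0.5). Chpt1, with which Sycp3 shares 13668 bases, averaged 27.3 RPM in 2i/L, 45.9 RPM in MEKi/L, 56.9 RPM with GSK3i/L at 24 days, 31.2 RPM with GSK3i/L at 8 days and 73.1 RPM in S/L. Whether counting used the strand is not given in the sources used here, so reads of the pair may not be told apart.

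Syce1 was at 10.5, 7.59 and 10.2 RPM in 2i/L and 15.7, 11.7 and 13.3 RPM in MEKi/L. GSK3i/L libraries had Syce1 at 8.20 and 8.10 RPM after 24 days and 6.09, 5.02 and 13.8 RPM after 8 days, and S/L libraries had it at 22.4, 17.4 and 18.7 RPM. Syce1, a central element protein of the synaptonemal complex, was higher in every S/L library than in any other. Against S/L, Syce1 had log2 fold changes of −1.05 ± 0.30 (adjusted p = 0.0079) in 2i/L, −0.53 ± 0.30 (adjusted p = 0.17) in MEKi/L and −1.37 ± 0.30 (adjusted p = 0.0045) with GSK3i/L. Syce2 encodes its partner in the central element and overlaps Gcdh by 1829 bases on the opposite strand. Gcdh averaged 57.2 RPM in 2i/L, 50.2 RPM in MEKi/L and 40.5 RPM in S/L. With GSK3i/L, Gcdh averaged 66.2 RPM at 24 days and 51.3 RPM at 8 days. Reads in the shared bases may not be told apart here either. Syce2 was at 47.1, 50.1 and 46.2 RPM in 2i/L and 50.9, 92.2 and 69.9 RPM in MEKi/L. GSK3i/L libraries had Syce2 at 158 and 171 RPM after 24 days and 49.0, 77.8 and 131 RPM after 8 days, and S/L libraries had it at 125, 94.5 and 90.01 RPM. The pair of 24-day libraries lay above all others, and the 2i/L libraries lay below all those of S/L. Against S/L, Syce2 had log2 fold changes of −1.10 ± 0.29 (adjusted p = 0.0051) in 2i/L, −0.57 ± 0.29 (adjusted p = 0.14) in MEKi/L and −0.36 ± 0.29 (adjusted p = 0.35) with GSK3i/L. After 24 days Syce2 was higher than after 8 days of the GSK3 inhibitor, with 1.05 ± 0.33 (adjusted p = 0.043). The replicate block ended that call (adjusted p = 0.089).

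Hormad1, whose protein binds unsynapsed chromosome axes, separated the single inhibitors. Hormad1 was at 7.16, 8.62 and 10.9 RPM in 2i/L and 15.7, 26.6 and 26.9 RPM in MEKi/L. GSK3i/L libraries had Hormad1 at 6.30 and 5.64 RPM after 24 days and 2.92, 3.57 and 9.60 RPM after 8 days, and S/L libraries had it at 27.6, 21.4 and 18.01 RPM. MEKi/L and S/L overlapped, and all 2i/L and GSK3i/L libraries lay below both. Against S/L, Hormad1 had log2 fold changes of −1.33 ± 0.37 (adjusted p = 0.0067) in 2i/L, 0.03 ± 0.37 (adjusted p = 0.96) in MEKi/L and −2.25 ± 0.37 (adjusted p = 0.00058) with GSK3i/L. MEKi/L exceeded GSK3i/L at 8 days by 2.27 ± 0.37 (adjusted p = 0.00059) on the log2 scale. Hormad1 was lower in 2i/L than in MEKi/L, with −1.35 ± 0.37 (adjusted p = 0.028). With the score in the fit that difference was −0.78 (adjusted p = 0.061), and the one of 2i/L from S/L was −0.01 (adjusted p = 0.99). Between 2i/L and S/L, score and medium cannot be told apart.

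Hormad2, a related axis protein that acts in the surveillance of synapsis, had its lowest levels in S/L, unlike Hormad1. Hormad2 was at 8.46, 8.46 and 11.8 RPM in 2i/L and 19.7, 29.9 and 28.3 RPM in MEKi/L. GSK3i/L libraries had Hormad2 at 19.0 and 24.4 RPM after 24 days and 5.17, 5.15 and 11.8 RPM after 8 days, and S/L libraries had it at 6.60, 3.55 and 3.16 RPM. MEKi/L and the 24-day libraries overlapped and lay above all others, and 2i/L lay above S/L. Against S/L, Hormad2 had log2 fold changes of 1.17 ± 0.34 (adjusted p = 0.0087) in 2i/L, 2.61 ± 0.34 (adjusted p = 5.4e-05) in MEKi/L and 0.70 ± 0.34 (adjusted p = 0.13) with GSK3i/L. Hormad2 in MEKi/L was also above GSK3i/L at 8 days, with 1.91 ± 0.34 (adjusted p = 0.0012). It was higher after 24 days of the GSK3 inhibitor than after 8 days, by 1.66 ± 0.38 (adjusted p = 0.017). Sycp1, the transverse filament protein that joins the axes, did not pass in any of the 8 comparisons. Sycp1 ranged over 2.51 to 5.03 RPM in 2i/L and 3.02 to 5.50 RPM in MEKi/L. With GSK3i/L, Sycp1 stood at 3.72 to 5.99 RPM after 24 days and 1.66 to 2.43 RPM after 8 days, and S/L had 2.36 to 4.41 RPM. Sycp2, the partner of Sycp3 in the axis, was near the floor. Sycp2 ranged over 0.152 to 0.331 RPM in 2i/L and 1.27 to 1.80 RPM in MEKi/L. With GSK3i/L, Sycp2 stood at 0.264 to 0.684 RPM after 24 days and 0.128 to 0.603 RPM after 8 days, and S/L had 0.306 to 1.72 RPM. It was higher in MEKi/L than in GSK3i/L at 8 days, with 2.19 ± 0.72 (adjusted p = 0.049), and lower in 2i/L than in MEKi/L, with −2.98 ± 0.72 (adjusted p = 0.015). Since Sycp2 passed the filter mainly through its few reads in MEKi/L and S/L, these folds rest on 18 to 25 reads per MEKi/L library and 2 to 5 per 2i/L library.

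The 3 meiotic cohesin subunits each had another order. Smc1b, the meiosis form of an SMC subunit, had the largest log2 fold change of the listed genes between the single inhibitors. Smc1b was at 2.44, 4.11 and 9.65 RPM in 2i/L and 21.2, 11.4 and 10.8 RPM in MEKi/L. GSK3i/L libraries had Smc1b at 1.75 and 2.29 RPM after 24 days and 1.68, 1.98 and 0.603 RPM after 8 days, and S/L libraries had it at 6.48, 4.00 and 3.37 RPM. All MEKi/L libraries lay above all others, and all GSK3i/L libraries lay below S/L. Against S/L, Smc1b had log2 fold changes of 0.05 ± 0.52 (adjusted p = 0.94) in 2i/L, 1.63 ± 0.52 (adjusted p = 0.022) in MEKi/L and −1.82 ± 0.52 (adjusted p = 0.017) with GSK3i/L. MEKi/L was above GSK3i/L at 8 days by 3.45 ± 0.52 (adjusted p = 0.0003). With the score in the fit, its MEKi/L difference from S/L was 0.97 (adjusted p = 0.16). Rec8, the meiotic kleisin, was highest with both inhibitors. Rec8 was at 18.2, 19.13 and 22.7 RPM in 2i/L and 13.5, 9.28 and 8.62 RPM in MEKi/L. GSK3i/L libraries had Rec8 at 7.14 and 10.0 RPM after 24 days and 8.60, 8.92 and 5.42 RPM after 8 days, and S/L libraries had it at 6.85, 9.94 and 8.02 RPM. No library outside 2i/L reached the lowest 2i/L value. Against S/L, Rec8 had log2 fold changes of 1.28 ± 0.25 (adjusted p = 0.00061) in 2i/L, 0.33 ± 0.25 (adjusted p = 0.31) in MEKi/L and −0.13 ± 0.25 (adjusted p = 0.71) with GSK3i/L. It was the only listed gene higher in 2i/L than in MEKi/L, with 0.96 ± 0.25 (adjusted p = 0.023). With the score in the fit that difference was 0.65 (adjusted p = 0.063), and the one of 2i/L from S/L was 0.58 (adjusted p = 0.17). Stag3, the meiosis form of a STAG subunit, was highest after 24 days of the GSK3 inhibitor. Stag3 was at 64.1, 77.9 and 110.4 RPM in 2i/L and 70.7, 79.4 and 109 RPM in MEKi/L. GSK3i/L libraries had Stag3 at 155 and 197 RPM after 24 days and 87.4, 106 and 131 RPM after 8 days, and S/L libraries had it at 72.9, 53.6 and 55.0 RPM. Both 24-day libraries lay above all others, and the 8-day GSK3i/L libraries lay above S/L. Against S/L, Stag3 had log2 fold changes of 0.45 ± 0.24 (adjusted p = 0.11) in 2i/L, 0.50 ± 0.24 (adjusted p = 0.1) in MEKi/L and 0.83 ± 0.24 (adjusted p = 0.017) with GSK3i/L. At 24 days the difference from S/L was 1.55 ± 0.26 (adjusted p = 0.00076).

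Among recombination genes, Tex11 and Tex15 were highest with both inhibitors and Dmc1 had its lowest group mean there. Tex11, an X-linked gene needed for crossovers and synapsis, was lower with the GSK3 inhibitor alone. Tex11 was at 8.76, 7.11 and 11.2 RPM in 2i/L and 7.87, 7.56 and 8.81 RPM in MEKi/L. GSK3i/L libraries had Tex11 at 3.72 and 2.47 RPM after 24 days and 4.84, 2.47 and 4.37 RPM after 8 days, and S/L libraries had it at 5.81, 6.64 and 7.02 RPM. The 5 GSK3i/L libraries lay below all others. Against S/L, Tex11 had log2 fold changes of 0.46 ± 0.28 (adjusted p = 0.16) in 2i/L, 0.32 ± 0.28 (adjusted p = 0.37) in MEKi/L and −0.79 ± 0.28 (adjusted p = 0.042) with GSK3i/L. MEKi/L was above GSK3i/L at 8 days by 1.11 ± 0.28 (adjusted p = 0.011). Tex15, needed for meiotic recombination and for transposon silencing in male germ cells, rose with both inhibitors. Tex15 was at 11.4, 10.4 and 12.8 RPM in 2i/L and 8.25, 5.04 and 5.40 RPM in MEKi/L. GSK3i/L libraries had Tex15 at 5.85 and 6.16 RPM after 24 days and 7.49, 3.64 and 5.79 RPM after 8 days, and S/L libraries had it at 2.60, 7.94 and 4.16 RPM. Every 2i/L library lay above every other. Against S/L, Tex15 had log2 fold changes of 1.39 ± 0.36 (adjusted p = 0.0045) in 2i/L, 0.46 ± 0.36 (adjusted p = 0.32) in MEKi/L and 0.29 ± 0.36 (adjusted p = 0.56) with GSK3i/L. Dmc1 encodes the meiotic recombinase that pairs broken DNA with its homologue. Dmc1 was at 4.88, 6.72 and 9.79 RPM in 2i/L and 12.5, 19.0 and 17.5 RPM in MEKi/L. GSK3i/L libraries had Dmc1 at 21.3 and 22.3 RPM after 24 days and 9.16, 10.7 and 17.3 RPM after 8 days, and S/L libraries had it at 16.3, 9.94 and 9.91 RPM. The 24-day libraries were the highest. The 2i/L group had the lowest mean, with its highest library just under the lowest of S/L. Against S/L, Dmc1 had log2 fold changes of −0.77 ± 0.30 (adjusted p = 0.037) in 2i/L, 0.46 ± 0.30 (adjusted p = 0.24) in MEKi/L and 0.03 ± 0.30 (adjusted p = 0.95) with GSK3i/L. 2i/L was below MEKi/L as well, with −1.23 ± 0.30 (adjusted p = 0.016). Spo11, which makes the breaks that start recombination, had no read in any of the 14 libraries. Mei1, needed for those breaks, had 0 to 8 reads per library and could not be compared at this depth.

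**Figure D5:**
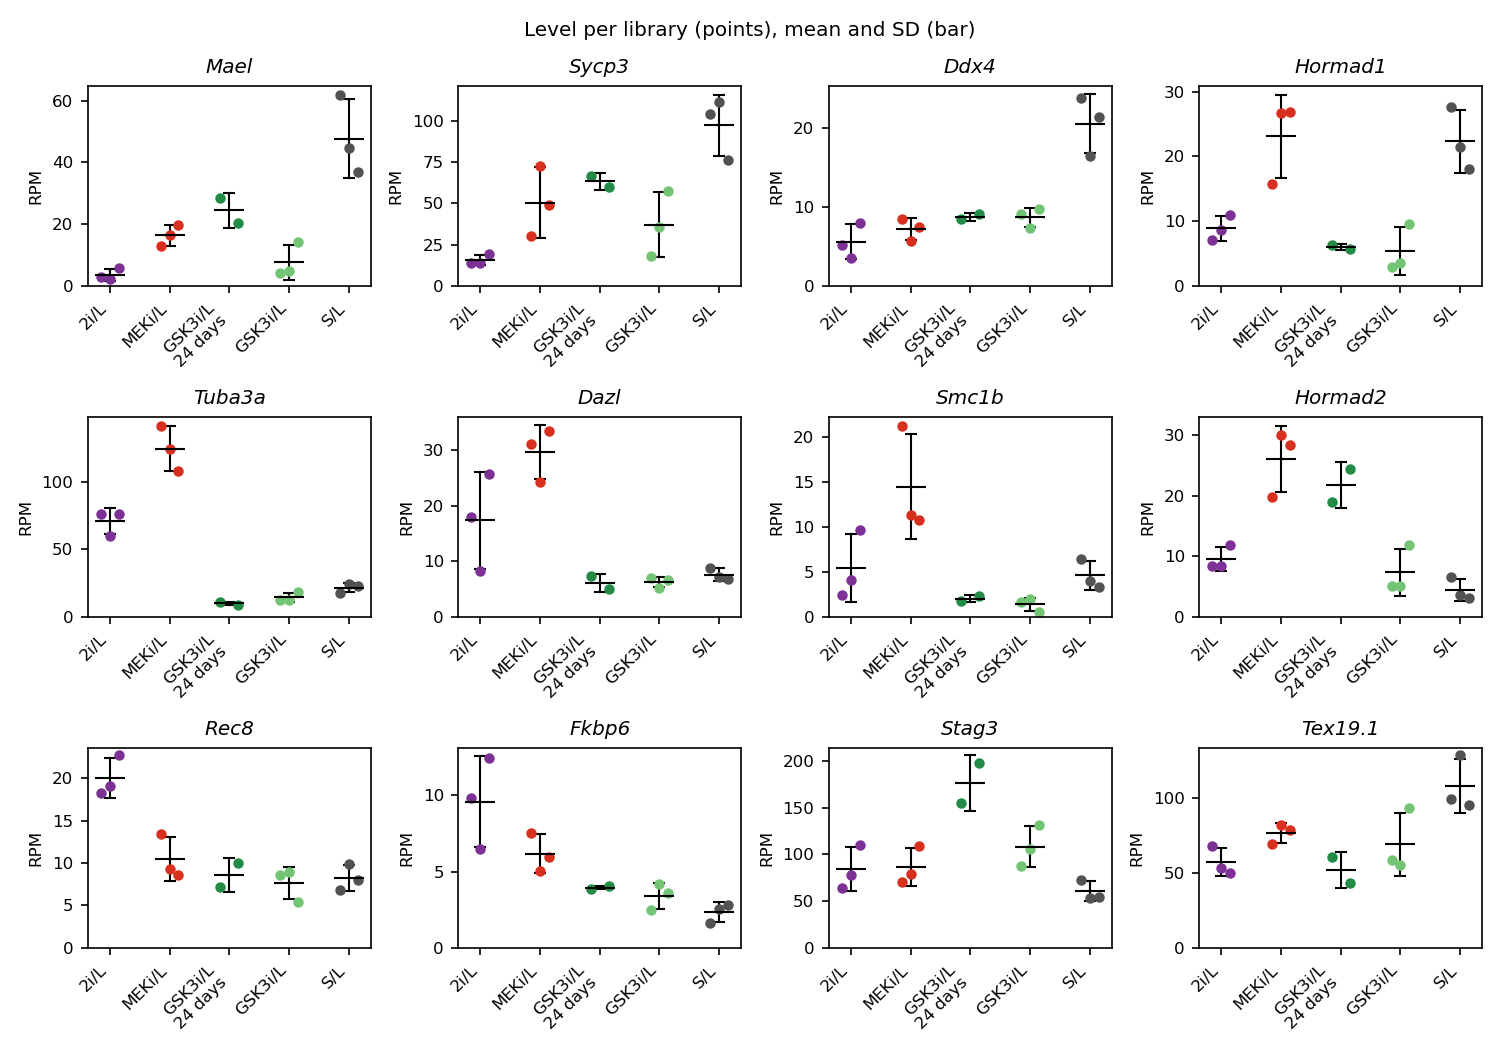
Level in RPM of 12 genes in each library (points) with the mean and SD of the group (bars), for 2i/L, MEKi/L, GSK3i/L at 24 days, GSK3i/L at 8 days and S/L; the vertical axes differ between genes. All S/L points of Mael, Sycp3 and Ddx4 lie above those of the other groups, and the MEKi/L points of Tuba3a lie at 108 to 141 RPM, above all others.

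In the piRNA pathway and the germ granule, Mael, Ddx4 and Tdrkh were lower than in S/L in each 8-day medium and Tex19.1 in those with the GSK3 inhibitor, while Fkbp6 was higher with the MEK inhibitor, alone or with the other. The two-cell-like markers, at 0 to 0.08 RPM in 2i/L and 47.0 to 104.6 RPM in S/L, were highest in the same libraries as Mael and Ddx4, and their part in these differences was not tested. Mael, a factor of the piRNA pathway that acts in transposon silencing, had the largest difference between 2i/L and S/L of the listed genes. Mael was at 2.97, 2.21 and 5.88 RPM in 2i/L and 12.9, 16.4 and 19.8 RPM in MEKi/L. GSK3i/L libraries had Mael at 28.4 and 20.5 RPM after 24 days and 4.14, 4.80 and 14.2 RPM after 8 days, and S/L libraries had it at 61.7, 44.5 and 36.8 RPM. S/L lay above all other libraries, and 2i/L below all of MEKi/L. Against S/L, Mael had log2 fold changes of −3.78 ± 0.43 (adjusted p = 7.8e-06) in 2i/L, −1.53 ± 0.43 (adjusted p = 0.012) in MEKi/L and −2.83 ± 0.43 (adjusted p = 0.00033) with GSK3i/L. It was lower in 2i/L than in MEKi/L, with −2.25 ± 0.43 (adjusted p = 0.0038). Against 8 days of the GSK3 inhibitor, 24 days gave 1.88 ± 0.48 (adjusted p = 0.024). With the score as a covariate the MEKi/L difference from S/L was −0.85 (adjusted p = 0.1). Ddx4, the Vasa RNA helicase of the germ granule, showed a similar preference. Ddx4 was at 5.26, 3.56 and 8.00 RPM in 2i/L and 8.50, 5.76 and 7.49 RPM in MEKi/L. GSK3i/L libraries had Ddx4 at 8.43 and 9.07 RPM after 24 days and 9.08, 7.37 and 9.73 RPM after 8 days, and S/L libraries had it at 23.8, 16.5 and 21.4 RPM. The lowest S/L library lay above every other library, and the serum-free groups overlapped. Against S/L, Ddx4 had log2 fold changes of −1.94 ± 0.27 (adjusted p = 4.7e-05) in 2i/L, −1.51 ± 0.27 (adjusted p = 0.00069) in MEKi/L and −1.23 ± 0.27 (adjusted p = 0.0045) with GSK3i/L.

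Tex19.1 was at 68.1, 53.4 and 50.5 RPM in 2i/L and 69.2, 82.0 and 78.7 RPM in MEKi/L. GSK3i/L libraries had Tex19.1 at 60.7 and 43.6 RPM after 24 days and 58.7, 55.4 and 93.7 RPM after 8 days, and S/L libraries had it at 99.8, 129 and 95.8 RPM. Tex19.1, which restrains retrotransposons in germ cells and placenta, was thus highest in the 3 S/L libraries. Against S/L, Tex19.1 had log2 fold changes of −0.92 ± 0.22 (adjusted p = 0.0024) in 2i/L, −0.49 ± 0.22 (adjusted p = 0.085) in MEKi/L and −0.67 ± 0.22 (adjusted p = 0.031) with GSK3i/L. With the score in the fit its difference from S/L was −0.43 (adjusted p = 0.23) in 2i/L and −0.47 (adjusted p = 0.064) in GSK3i/L. Its near copy Tex19.2 ranged over 1.07 to 1.66 RPM in 2i/L, 2.09 to 3.81 RPM in MEKi/L, 0.528 to 1.59 RPM with GSK3i/L at 24 days, 0.318 to 2.77 RPM with GSK3i/L at 8 days and 3.05 to 4.83 RPM in S/L, and reads of the pair are uncertain where counting could split them. Tdrkh encodes a Tudor protein on which piRNA ends are trimmed. Tdrkh was at 0.686, 0.474 and 1.39 RPM in 2i/L and 1.97, 1.87 and 1.80 RPM in MEKi/L. GSK3i/L libraries had Tdrkh at 2.58 and 4.32 RPM after 24 days and 2.10, 1.98 and 1.30 RPM after 8 days, and S/L libraries had it at 5.81, 2.48 and 6.27 RPM. The 2i/L, MEKi/L and 8-day GSK3i/L libraries all lay below S/L, and the 24-day ones lay within it. Against S/L, Tdrkh had log2 fold changes of −2.55 ± 0.44 (adjusted p = 0.00023) in 2i/L, −1.26 ± 0.44 (adjusted p = 0.034) in MEKi/L and −1.35 ± 0.44 (adjusted p = 0.031) with GSK3i/L.

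Fkbp6, a co-chaperone in the loading of piRNAs, had its lowest group mean in serum, where Mael had its highest. E-boxes stand in both printed promoters, and their part in the levels was not tested. Fkbp6 was at 9.83, 6.48 and 12.4 RPM in 2i/L and 7.55, 5.04 and 5.97 RPM in MEKi/L. GSK3i/L libraries had Fkbp6 at 3.87 and 4.05 RPM after 24 days and 2.48, 4.16 and 3.62 RPM after 8 days, and S/L libraries had it at 1.62, 2.58 and 2.85 RPM. All 2i/L and MEKi/L libraries lay above all those of S/L. Against S/L, Fkbp6 had log2 fold changes of 2.02 ± 0.31 (adjusted p = 9.0e-05) in 2i/L, 1.42 ± 0.31 (adjusted p = 0.0025) in MEKi/L and 0.55 ± 0.31 (adjusted p = 0.18) with GSK3i/L. 2i/L was above GSK3i/L at 8 days by 1.47 ± 0.31 (adjusted p = 0.0032). Piwil2, the PIWI protein MILI, overlapped between S/L and the other groups at 8 days. Piwil2 was at 4.65, 3.32 and 8.60 RPM in 2i/L and 7.55, 4.39 and 6.63 RPM in MEKi/L. GSK3i/L libraries had Piwil2 at 12.7 and 11.5 RPM after 24 days and 11.5, 8.02 and 9.19 RPM after 8 days, and S/L libraries had it at 8.11, 6.40 and 9.57 RPM. It passed in 1 comparison, 2i/L against GSK3i/L at 8 days, with −0.89 ± 0.32 (adjusted p = 0.05), and those libraries overlapped. Stk31, a Tudor-domain kinase of germ cells, passed between 24 and 8 days of the GSK3 inhibitor. Stk31 was at 8.54, 5.93 and 10.1 RPM in 2i/L and 14.02, 11.4 and 13.1 RPM in MEKi/L. GSK3i/L libraries had Stk31 at 22.6 and 19.6 RPM after 24 days and 6.38, 4.94 and 15.8 RPM after 8 days, and S/L libraries had it at 19.8, 8.18 and 15.7 RPM. The 24-day libraries lay above the 8-day ones, by 1.41 ± 0.44 (adjusted p = 0.042). Mov10l1, the helicase that starts piRNA processing, did not pass in any comparison and ranged from 1.66 to 9.71 RPM over the 14 libraries. Tdrd1, a Tudor scaffold of the germ granule, did not pass either, at 0.395 to 0.457 RPM in 2i/L, 0.0948 to 0.761 RPM in MEKi/L, 0.304 to 0.440 RPM and 0.215 to 0.657 RPM with GSK3i/L at 24 and 8 days, and 0.554 to 2.07 RPM in S/L. Tdrd9, a helicase with a Tudor domain, was called higher in 2i/L, MEKi/L and 8-day GSK3i/L than in S/L, but it had 2, 0 and 2 reads in S/L and at most 12 reads in any library with a whole-read count. No S/L library reached the filter level, so Tdrd9 entered the test only through the groups called higher, which favours those calls. Asz1, a mitochondrial membrane protein needed for piRNA production, had 0 to 9 reads per library.

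Of the 5 genes for RNA binding and transcription in germ cells, 4 were higher in MEKi/L than in S/L, beside 26.1% of all genes. The 5 genes were not tested as a set. Dazl, an RNA-binding protein that licenses primordial germ cells for gametogenesis, was highest in MEKi/L. Dazl was at 17.99, 8.30 and 25.7 RPM in 2i/L and 31.1, 24.2 and 33.5 RPM in MEKi/L. GSK3i/L libraries had Dazl at 7.29 and 5.02 RPM after 24 days and 6.93, 5.22 and 6.70 RPM after 8 days, and S/L libraries had it at 8.88, 7.18 and 6.81 RPM. MEKi/L lay above all of S/L and GSK3i/L, while 1 of the 2i/L libraries fell within S/L. Against S/L, Dazl had log2 fold changes of 1.05 ± 0.33 (adjusted p = 0.013) in 2i/L, 1.95 ± 0.33 (adjusted p = 0.0004) in MEKi/L and −0.28 ± 0.33 (adjusted p = 0.53) with GSK3i/L. MEKi/L exceeded GSK3i/L by 2.23 ± 0.33 (adjusted p = 0.00026), and 2i/L exceeded GSK3i/L by 1.33 ± 0.33 (adjusted p = 0.009). Sohlh2, a helix-loop-helix factor of early spermatogonia and oocytes, showed the same group at the top. Sohlh2 was at 12.3, 15.3 and 21.3 RPM in 2i/L and 37.8, 33.2 and 20.8 RPM in MEKi/L. GSK3i/L libraries had Sohlh2 at 11.0 and 9.51 RPM after 24 days and 9.47, 13.2 and 11.4 RPM after 8 days, and S/L libraries had it at 9.85, 9.94 and 10.4 RPM. Every 2i/L and MEKi/L library lay above every S/L library. Against S/L, Sohlh2 had log2 fold changes of 0.66 ± 0.24 (adjusted p = 0.03) in 2i/L, 1.56 ± 0.24 (adjusted p = 0.00023) in MEKi/L and 0.16 ± 0.24 (adjusted p = 0.64) with GSK3i/L. Brdt, the testis bromodomain protein, was low throughout. Brdt was at 1.68, 1.98 and 2.91 RPM in 2i/L and 2.92, 3.38 and 3.13 RPM in MEKi/L. GSK3i/L libraries had Brdt at 1.06 and 0.616 RPM after 24 days and 0.534, 0.586 and 0.182 RPM after 8 days, and S/L libraries had it at 1.19, 0.745 and 1.77 RPM. MEKi/L was the highest group and every GSK3i/L library of 8 days lay below S/L. Against S/L, Brdt had log2 fold changes of 0.87 ± 0.47 (adjusted p = 0.12) in 2i/L, 1.43 ± 0.47 (adjusted p = 0.026) in MEKi/L and −1.59 ± 0.47 (adjusted p = 0.021) with GSK3i/L. Between the single inhibitors it differed by 3.03 ± 0.47 (adjusted p = 0.00042).

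Mybl1, or A-MYB, a factor for meiotic and piRNA precursor genes in the testis, was lower in S/L than in most other libraries. Mybl1 was at 24.1, 24.9 and 30.5 RPM in 2i/L and 25.3, 27.3 and 35.2 RPM in MEKi/L. GSK3i/L libraries had Mybl1 at 32.1 and 31.5 RPM after 24 days and 17.6, 25.0 and 23.7 RPM after 8 days, and S/L libraries had it at 18.5, 17.1 and 19.0 RPM. 2i/L, MEKi/L and the 24-day libraries all lay above S/L, and the 8-day GSK3i/L libraries overlapped it. Against S/L, Mybl1 had log2 fold changes of 0.54 ± 0.18 (adjusted p = 0.018) in 2i/L, 0.67 ± 0.18 (adjusted p = 0.0091) in MEKi/L and 0.27 ± 0.18 (adjusted p = 0.27) with GSK3i/L. Taf7l, an X-linked relative of a TFIID subunit, was instead highest in serum. Taf7l was at 0.610, 0.790 and 0.860 RPM in 2i/L and 1.84, 2.23 and 1.90 RPM in MEKi/L. GSK3i/L libraries had Taf7l at 1.595 and 1.14 RPM after 24 days and 1.80, 1.66 and 1.15 RPM after 8 days, and S/L libraries had it at 2.82, 3.08 and 2.64 RPM. S/L lay above all other libraries and 2i/L below all others. Against S/L, Taf7l had log2 fold changes of −1.93 ± 0.30 (adjusted p = 0.0001) in 2i/L, −0.52 ± 0.30 (adjusted p = 0.18) in MEKi/L and −0.91 ± 0.30 (adjusted p = 0.033) with GSK3i/L. 2i/L was below MEKi/L, with a log2 fold change of −1.41 ± 0.30 (adjusted p = 0.0073).

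Of the 4 remaining germ cell proteins, Tuba3a had the largest log2 fold change between the single inhibitors among those with reads in both groups. Tuba3a encodes an alpha-tubulin known from testis. Tuba3a was at 76.4, 60.0 and 76.2 RPM in 2i/L and 141, 124 and 108 RPM in MEKi/L. GSK3i/L libraries had Tuba3a at 11.0 and 8.98 RPM after 24 days and 12.7, 12.3 and 18.2 RPM after 8 days, and S/L libraries had it at 17.9, 24.4 and 22.5 RPM. MEKi/L lay above 2i/L, 2i/L above S/L, and the GSK3i/L groups lay at or below S/L, with 1 library of 8 days inside the S/L range. Against S/L, Tuba3a had log2 fold changes of 1.72 ± 0.20 (adjusted p = 7.6e-06) in 2i/L, 2.53 ± 0.20 (adjusted p = 6.4e-07) in MEKi/L and −0.59 ± 0.20 (adjusted p = 0.034) with GSK3i/L. Without the 2 high-score libraries the difference of GSK3i/L from S/L was −0.52 (adjusted p = 0.081). MEKi/L exceeded GSK3i/L at 8 days by 3.12 ± 0.20 (adjusted p = 2.5e-07), and 2i/L was below MEKi/L with −0.81 ± 0.20 (adjusted p = 0.014). Its near-identical copy Tuba3b ranged over 0.395 to 0.762 RPM in 2i/L, 0.648 to 1.97 RPM in MEKi/L, 0.068 to 0.176 RPM with GSK3i/L at 24 days, 0.084 to 0.091 RPM with GSK3i/L at 8 days and 0.154 to 0.306 RPM in S/L, and reads that fit both copies may have been split or dropped. Slc25a31, the ADP/ATP carrier of testis mitochondria, was low. Slc25a31 was at 1.30, 0.474 and 0.529 RPM in 2i/L and 2.54, 1.73 and 1.99 RPM in MEKi/L. GSK3i/L libraries had Slc25a31 at 0.532 and 0.528 RPM after 24 days and 0.868, 0.318 and 1.01 RPM after 8 days, and S/L libraries had it at 3.77, 2.17 and 2.54 RPM. MEKi/L overlapped S/L, and all other libraries lay below both. Against S/L, Slc25a31 had log2 fold changes of −1.999 ± 0.49 (adjusted p = 0.0028) in 2i/L, −0.42 ± 0.49 (adjusted p = 0.51) in MEKi/L and −2.07 ± 0.49 (adjusted p = 0.0066) with GSK3i/L. Dpep3, a membrane dipeptidase of testis, stayed low as well. Dpep3 ranged over 0.457 to 1.98 RPM in 2i/L and 1.14 to 2.09 RPM in MEKi/L. With GSK3i/L, Dpep3 stood at 0.352 to 0.380 RPM after 24 days and 0.141 to 0.492 RPM after 8 days, and S/L had 0.155 to 0.838 RPM. It was higher in MEKi/L than in S/L, with 2.04 ± 0.68 (adjusted p = 0.028), and higher in MEKi/L than in GSK3i/L, with 2.78 ± 0.68 (adjusted p = 0.01). No GSK3i/L library reached the filter level, so Dpep3 entered the test through other groups, which favours the call against GSK3i/L. Tex101, a glycoprotein of the germ cell surface, had no read in any of the 5 GSK3i/L libraries. Tex101 ranged over 0 to 0.158 RPM in 2i/L and 0.432 to 0.663 RPM in MEKi/L. With GSK3i/L, Tex101 stood at 0 RPM after 24 days and 0 RPM after 8 days, and S/L had 0.306 to 2.36 RPM. With GSK3i/L set at its floor of 3 reads per library, the S/L mean of Tex101 was at least 3.6-fold above it at 8 days and at least 4.8-fold above it at 24 days. These bounds hold for the mean and not for each library, since S/L replicate 2, at 0.306 RPM, lay under the 8-day floor of 0.326 RPM. The MEKi/L mean of Tex101 was at least 1.6-fold above GSK3i/L at 8 days. Tex101 passed the filter only through MEKi/L and S/L libraries, which favours its calls against the other groups.

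With longer culture in the GSK3 inhibitor, 5 of the 32 genes passed the test. Between 24 and 8 days, 4 of the 32 were higher (Mael, Hormad2, Stk31 and Syce2), 1 was lower (Tdrd9) and 27 were not past, beside 4.3% of all genes higher and 13.2% lower, 17.5% in all. Those counts depend on single libraries: the number higher was 10 without the 8-day replicate 3, 1 without the 8-day replicate 2, and 0 without the 8-day replicate 1, without either of the 24-day libraries or with the score as a covariate. It was 2 without the 2 high-score libraries, where the calls of Stk31 (adjusted p = 0.091), Syce2 (adjusted p = 0.064) and Tdrd9 (adjusted p = 0.051) ended. Tdrd9 was not past without the 8-day replicate 1 or either 24-day library. Of all calls, 24.6% were higher, and 47.5% with trimmed mean scaling, under which 7 of the listed genes were higher. Against S/L, the 24-day libraries had 3 genes higher (Hormad2, Stag3 and Mybl1), 9 lower (Tex101, Slc25a31, Hormad1, Syce1, Ddx4, Tuba3a, Tex11, Taf7l and Tex19.1) and 20 not past, beside 10.2% and 14.9% of all genes, 25.1% in all. Of all those calls 40.5% were higher, and 52.6% under quantile normalization. Without replicate 3 of the 24-day group 4 were lower. Hormad2 was at 2.36 ± 0.38 (adjusted p = 0.00054) and Mybl1 at 0.81 ± 0.20 (adjusted p = 0.0091) in that comparison. Mael was at −0.95 ± 0.48 (adjusted p = 0.17) and Tuba3a at −1.11 ± 0.22 (adjusted p = 0.0022). As S/L was sampled at 8 days only, time in culture cannot be told apart from medium and inhibitor in the 24-day comparison with S/L.

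Other genes of the same pathways, taken from a list of known meiosis genes that are not among the 35, moved in part alike. Of 18 tested, 2 were higher and 8 lower in 2i/L than in S/L, 2 and 4 in MEKi/L, and 0 and 8 in GSK3i/L. Over all genes tested, 39.1% were higher and 24.4% lower in 2i/L than in S/L, 26.1% and 14.7% in MEKi/L, 16.8% and 14.4% in GSK3i/L. Their median log2 fold changes against S/L were −0.50 in 2i/L, 0.11 in MEKi/L and −0.59 with GSK3i/L, where all genes had 0.28, 0.17 and 0.06. At an unadjusted p under 0.05 in GSK3i/L the number higher was 3. In MEKi/L against GSK3i/L, 5 were higher and 0 lower, with 2 lower at an unadjusted p under 0.05, beside 12.2% and 5.65% of all genes. Stra8, the retinoic acid target that starts meiosis, averaged 0.833 ± 0.556 RPM in 2i/L, 2.41 ± 1.27 RPM in MEKi/L, 0.582 ± 0.455 RPM with GSK3i/L and 7.41 ± 2.37 RPM in S/L (SD, n = 3 each). It was lower than in S/L in 2i/L (−3.44 ± 0.71, adjusted p = 0.00088) and in GSK3i/L (−3.95 ± 0.71, adjusted p = 0.0011). Zcwpw1, a reader of the histone marks at recombination sites, averaged 21.6 ± 8.05 RPM in 2i/L, 64.2 ± 4.96 RPM in MEKi/L, 15.3 ± 4.41 RPM with GSK3i/L and 36.6 ± 2.98 RPM in S/L. It was higher in MEKi/L than in GSK3i/L, by 2.11 ± 0.24 (adjusted p = 4.0e-05). Mei4, needed for meiotic breaks, was lower than in S/L in MEKi/L (−2.40 ± 0.41, adjusted p = 0.00046) and in 2i/L (−2.22 ± 0.41, adjusted p = 0.00042). Syce3, a further central element protein, was lower than in S/L in 2i/L (−2.90 ± 0.56, adjusted p = 0.00061) and GSK3i/L (−2.28 ± 0.56, adjusted p = 0.0088).

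Of 16 other piRNA and germ granule genes tested, 5 were higher and 4 lower in 2i/L than in S/L, 6 and 4 in MEKi/L, and 2 and 4 in GSK3i/L. The shares of all genes were 39.1% and 24.4%, 26.1% and 14.7%, and 16.8% and 14.4% in the same order. Their medians were −0.06 in 2i/L, 0.04 in MEKi/L and 0.16 with GSK3i/L, beside 0.28, 0.17 and 0.06 for all genes. Piwil4, the nuclear PIWI protein MIWI2, averaged 0.0441 RPM in 2i/L, 0.0874 RPM in MEKi/L, 0.0428 RPM with GSK3i/L and 2.70 RPM in S/L. The 3 means without serum are under the floor of 3 reads. Only S/L libraries brought Piwil4 to the filter level, which favours calling it lower in the other media. Ddx25, a testis RNA helicase, had log2 fold changes against S/L of −2.73 ± 0.23 (adjusted p = 6.2e-07) in 2i/L, −1.75 ± 0.23 (adjusted p = 6.1e-05) in MEKi/L and −1.84 ± 0.23 (adjusted p = 7.3e-05) in GSK3i/L. Gpat2, a mitochondrial protein of the piRNA pathway, averaged 47.4 ± 7.51 RPM in 2i/L, 50.9 ± 9.54 RPM in MEKi/L, 12.7 ± 1.53 RPM with GSK3i/L and 8.91 ± 0.822 RPM in S/L. It was higher in MEKi/L than in S/L by 2.50 ± 0.19 (adjusted p = 5.7e-07) and higher than in GSK3i/L by 1.996 ± 0.19 (adjusted p = 6.7e-06).

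The known silencers of germline genes were listed as well: 27 genes, of which Atf7ip stands on 2 rows of the table, so 28 rows were tested. In 2i/L against S/L 13 were higher and 6 lower, in MEKi/L 10 and 3, in GSK3i/L 6 and 3, and in MEKi/L against GSK3i/L 0 and 2. Of all genes, 39.1% and 24.4%, 26.1% and 14.7%, 16.8% and 14.4%, and 12.2% and 5.65% were higher and lower in these comparisons. Their medians against S/L were 0.46 in 2i/L, 0.34 in MEKi/L and 0.17 with GSK3i/L, beside 0.28, 0.17 and 0.06 for all genes. At an unadjusted p under 0.05, 4 were higher in MEKi/L than in GSK3i/L. E2f6 averaged 26.8 ± 1.51 RPM in 2i/L, 24.2 ± 0.174 RPM in MEKi/L, 31.5 ± 9.70 RPM with GSK3i/L and 30.9 ± 8.20 RPM in S/L and Max 100.1 ± 5.16 RPM in 2i/L, 84.4 ± 10.3 RPM in MEKi/L, 71.4 ± 10.2 RPM with GSK3i/L and 78.1 ± 6.96 RPM in S/L, and neither passed against S/L. Mga, the MAX partner of PRC1.6, was higher than in S/L by 1.68 ± 0.28 (adjusted p = 0.00017) in 2i/L, 1.24 ± 0.28 (adjusted p = 0.003) in MEKi/L and 0.92 ± 0.28 (adjusted p = 0.023) in GSK3i/L. The long-minus-short score was also higher in 2i/L than in S/L, and its part in the Mga difference was not tested. Yaf2, a component of variant Polycomb complexes, had log2 fold changes against S/L of −2.34 ± 0.28 (adjusted p = 1.2e-05) in 2i/L and −2.20 ± 0.28 (adjusted p = 4.2e-05) in MEKi/L. Dnmt3l, the cofactor of the de novo DNA methyltransferases, averaged 9.63 ± 4.98 RPM in 2i/L, 154 ± 48.0 RPM in MEKi/L, 169 ± 11.5 RPM with GSK3i/L and 264 ± 50.9 RPM in S/L. Dnmt3a, one of those enzymes, averaged 12.2 ± 2.58 RPM in 2i/L, 45.3 ± 14.9 RPM in MEKi/L, 30.2 ± 9.84 RPM with GSK3i/L and 133 ± 10.3 RPM in S/L. Dnmt3b, the other, averaged 80.2 ± 22.4 RPM in 2i/L, 88.8 ± 37.5 RPM in MEKi/L, 178 ± 63.9 RPM with GSK3i/L and 264 ± 72.4 RPM in S/L. Uhrf1, which brings the maintenance methyltransferase to replicated DNA, averaged 625 ± 66.7 RPM in 2i/L, 399 ± 129.8 RPM in MEKi/L, 454 ± 195 RPM with GSK3i/L and 144 ± 19.8 RPM in S/L. By replicate it was at 548, 314 and 334 RPM in MEKi/L and 632, 486 and 245 RPM in GSK3i/L at 8 days. The high-score replicate 1 was the highest in both, and the part of the score in the Uhrf1 levels was not tested. MEKi/L and GSK3i/L differed by −0.17 ± 0.35 (adjusted p = 0.82) for Dnmt3l, by 0.60 ± 0.28 (adjusted p = 0.18) for Dnmt3a and by −1.02 ± 0.33 (adjusted p = 0.043) for Dnmt3b. The part of the silencers in the levels of the germline and meiosis genes was not tested.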

How the data were processed

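RNA sequencing of 14 libraries was analysed. Per the submitters' processing notes, Trim Galore 0.6.5, HISAT2, Bismark 0.22.3 and the genome build GRCm38 were used, with no step or data type named for each. The gene annotation and the counting options were not given in the sources used here, and neither was the strand setting. The authors deposited 1 table of log2 RPM values. Its values were turned back into RPM, and 0 stands at 0.9 read in the whole-read libraries, so a listed minimum was read as 0 reads. In the 6 libraries with shared sorted values, read numbers at low levels are known only from the order of the levels. The planned test for normalized values was used, since the table holds log2 values and no counts. Of the value columns, 1 belonged to no sample here and was not used.

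The 14980 genes that reached 0.5 RPM in 3 or more libraries entered 1 limma fit (3.58.1, R 4.3.3; empirical Bayes with trend and robust) of the log2 values as deposited on 5 groups, with Benjamini-Hochberg adjustment over all genes per comparison and a threshold of 0.05. Fold changes are log2 differences ± SE. The script was tested on simulated data. Every gene of the list is named, and each is given library by library where it passed in at least 1 of 8 comparisons and reached a group mean of 2 RPM. From the other lists up to 4 genes per comparison with the largest passing changes were eligible, and methyltransferase genes, E2f6, Max, Mga and Ldhc are named besides. The rule for the 35 genes is a list of symbols and uses no measured value, but that list and the other lists were chosen with earlier results of these data known. Lists of long and short genes were written after the data were seen.

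The labels state no pairing of replicates. Between MEKi/L and GSK3i/L at 8 days, deviations from the group means correlated at 0.669, 0.115 and 0.401 for replicates 1, 2 and 3. Both replicate 1 libraries are the high-score ones, so a pairing and a shared score cannot be told apart. In the other comparisons some or all pairs were at or under 0.1. Precision is limited by depth, since 3 reads were 0.19 to 0.461 RPM, and reads without molecular identifiers are not independent molecules, so floors cover counting error only. Alternatives were other filters, scalings, pseudocounts, fits of 2 groups alone, a replicate block, and fits without each library. Levels are not compared between genes, since they are not divided by transcript length.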

Additional observations from a re-analysis of the deposited data

How the results depend on the processing

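Of 105 calls of single genes in the 8 comparisons, 100 were kept with no filter on low values, 94 under quantile normalization, 98 after centring on the median gene, 97 with trimmed mean scaling, 104 with log2(RPM + 0.5), 100 with log2(RPM + 1), 102 with the replicate block, 98 without trend and robust options, 86 when only the 2 groups compared were fitted, 90 without the 2 high-score libraries and 73 with the long-minus-short score in the fit. The filter of 1 RPM left 96 of these calls to test and kept 95. The score and the fit without the 2 high-score libraries were chosen after seeing the data. None reversed except Syce2 (0.065, adjusted p = 0.85) and Dmc1 (0.03, adjusted p = 0.96) in 2i/L against S/L with the score. The causes were not tested.

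Counts of genes that moved were these. In 2i/L against S/L 5 were higher and 7 lower with the score, among them genes not called without it. In GSK3i/L against S/L, 1 was higher with the 1 RPM filter, with log2(RPM + 1) and without the high-score libraries, and 8 were lower with the 2 groups alone. In GSK3i/L at 24 days against S/L, 5 were higher with the 2 groups alone, with the score and without the high-score libraries. In 24 against 8 days, 7 were higher with trimmed mean scaling, 2 without trend and robust options or without the high-score libraries, and 0 with the 2 groups alone or the score. There, 0 were lower with the 1 RPM filter, quantile normalization, log2(RPM + 1), the 2 groups alone, the score, or without the high-score libraries. In 2i/L against MEKi/L, 2 were higher with the 2 groups alone or without the high-score libraries, and 0 with the score. In 2i/L against GSK3i/L, 8 were lower with no filter or centring, 7 with trimmed mean scaling, 5 with quantile normalization, 5 with the replicate block, 1 with the score or without trend and robust options, and 0 with the 2 groups alone.

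Leaving out each library in turn gave these ranges. 2i/L against S/L had 5 to 9 higher and 11 to 15 lower, MEKi/L against S/L 8 higher and 2 to 4 lower, and GSK3i/L against S/L 0 to 2 higher and 8 to 13 lower. GSK3i/L at 24 days had 2 to 4 higher and 4 to 8 lower against S/L, and 0 to 10 higher and 0 to 1 lower against 8 days. 2i/L against MEKi/L had 0 to 2 higher and 2 to 12 lower, 2i/L against GSK3i/L 6 to 8 higher and 0 to 6 lower, and MEKi/L against GSK3i/L 9 to 15 higher and 0 lower.

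The replicate block ended the calls of Syce2 (24 against 8 days, adjusted p = 0.089), Tex15 (2i/L against GSK3i/L, adjusted p = 0.055) and Sycp2 (MEKi/L against GSK3i/L, adjusted p = 0.05), and no other call. Depth limits the genes with few reads, Tdrd9, Tex101, Sycp2, Tdrd1 and Dpep3 among them.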

Other observations

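Regulators of primordial germ cells and later germ cells, a list apart from the 35 genes, moved in both directions. Of 17 tested, 7 were higher and 5 lower in 2i/L than in S/L, 10 and 3 in MEKi/L, and 4 and 5 in GSK3i/L, and 11 were higher and 1 lower in MEKi/L than in GSK3i/L (limma, adjusted p under 0.05). The shares of all genes were 39.1% and 24.4%, 26.1% and 14.7%, 16.8% and 14.4%, and 12.2% and 5.65% in the same order. Their median log2 fold changes against S/L were 0.29 in 2i/L, 0.96 in MEKi/L and −0.21 with GSK3i/L, beside 0.28, 0.17 and 0.06 for all genes. Kit, the receptor of stem cell factor, averaged 441 ± 8.74 RPM in 2i/L, 190.3 ± 37.2 RPM in MEKi/L, 96.9 ± 21.5 RPM with GSK3i/L and 30.3 ± 4.09 RPM in S/L (SD, n = 3 each). Prdm14, a regulator of the germ cell and naive pluripotent programmes, averaged 64.7 ± 8.77 RPM in 2i/L, 46.4 ± 15.7 RPM in MEKi/L, 18.8 ± 4.90 RPM with GSK3i/L and 8.71 ± 1.71 RPM in S/L. Dmrt1, a factor of the male germ line, averaged 13.0 ± 5.46 RPM in 2i/L, 1.62 ± 0.172 RPM in MEKi/L, 7.41 ± 2.37 RPM with GSK3i/L and 35.5 ± 2.03 RPM in S/L, so it was lowest in MEKi/L and lower there than in GSK3i/L, with a log2 fold change of −2.15 ± 0.30 (adjusted p = 0.00019). Rhox9, an X-linked homeobox gene of germ cells, averaged 2.92 ± 1.06 RPM in 2i/L, 11.7 ± 2.44 RPM in MEKi/L, 0.744 ± 0.160 RPM with GSK3i/L and 2.87 ± 0.444 RPM in S/L and was higher in MEKi/L than in GSK3i/L by 3.98 ± 0.32 (adjusted p = 1.6e-06). Zbtb16, a factor of spermatogonial stem cells, had no read in S/L. With S/L at its floor of 3 reads, its mean was at least 12.7-fold higher in 2i/L, at least 17.5-fold in MEKi/L and at least 3-fold in GSK3i/L. The GSK3i/L libraries were at 1.15, 0.492 and 0.461 RPM, so that bound holds for the mean and not for each library. Zbtb16 entered the test only through groups other than S/L, which favours calling it higher there.

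Among the late male germ cell markers, Ldhc, the testis lactate dehydrogenase, carried most of the sum. It averaged 11.6 ± 1.82 RPM in 2i/L, 9.87 ± 1.19 RPM in MEKi/L, 9.39 ± 1.97 RPM with GSK3i/L and 2.83 ± 0.107 RPM in S/L, and was higher than in S/L by 2.02 ± 0.20 (adjusted p = 2.7e-06) in 2i/L, 1.80 ± 0.20 (adjusted p = 1.7e-05) in MEKi/L and 1.71 ± 0.20 (adjusted p = 4.5e-05) in GSK3i/L.

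Of the 28 tested germline and meiosis genes with a promoter in the RefSeq table, 15 had an E-box and 13 had none. In 2i/L against S/L, 2 of the 15 with an E-box were higher and 7 lower, and 5 of the 13 without one were higher and 6 lower. In GSK3i/L against S/L the numbers were 2 and 7 of 15 with an E-box, and 0 and 6 of 13 without. In MEKi/L against GSK3i/L, 3 of 15 with an E-box and 8 of 13 without were higher, and none was lower. Over all genes tested, 39.1% were higher and 24.4% lower in 2i/L against S/L, and 16.8% and 14.4% in GSK3i/L against S/L. In MEKi/L against GSK3i/L the shares were 12.2% and 5.65%. The difference between the genes with and without an E-box was not tested.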
